A study of Mus musculus with 12 samples.

Results

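Potassium channel genes whose mouse symbols begin with Kcn were described in organotypic brain slices driven with picrotoxin and 4-aminopyridine, the second of which blocks potassium channels. Of 21967 gene symbols in the deposited table, 94 began with Kcn, and the 72 with a mean of at least 1 CPM (the number of reads assigned to a gene for every 1000000 reads counted in that library) over the 12 libraries are the genes reported. The other 22 lay below that mean. Just inside the limit were Kcnj8 at 1.19, Kcna5 at 1.16 and Kcnh6 at 1.06 CPM, and just outside it were Kcnk5 at 0.706, Kcnh8 at 0.682 and Kcne3 at 0.595 CPM. The 72 genes comprised 15 voltage-gated Kcna to Kcnd genes (6 Kcna, 2 Kcnb, 4 Kcnc and 3 Kcnd), 11 Kcnj genes, 9 Kcnk genes, 5 Kcnq genes and 32 others. The others were 8 modifier subunits (Kcnf1, Kcng, Kcns and Kcnv1), 7 Kcnh genes and 8 auxiliary subunits (Kcnab, Kcne1l and Kcnip). The last 9 were Kcnm, Kcnn, Kcnt and Kcnu genes, mainly of calcium- or sodium-activated channels.

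Slices were made from P6 mouse pups and kept for 8 days in vitro. Pups were either Mef2c fl/fl, in which both copies of the transcription factor gene Mef2c carry target sites for Cre, or CaMKiiα Cre +/-; Mef2c fl/fl, which also carry Cre under a promoter that is active mainly in excitatory forebrain neurons. Slices of both genotypes were given vehicle, which was 1% DMSO plus 1% water, or picrotoxin and 4-aminopyridine at 100 µM each, and each of the 4 groups gave 3 libraries of polyadenylated RNA. All 12 libraries thus carry the floxed alleles, and no group without them was sequenced. Mixed slices cannot tell fewer cells of a type from less RNA per cell. Whether the 3 libraries of each group came from separate pups or cultures is not stated, and p-values therefore reflect a spread that may be technical.

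Potassium channels set the resting potential and end action potentials by letting potassium leave the cell. Voltage-gated channels of the Kcna to Kcnd families open on depolarisation, and 4-aminopyridine blocks them from the inner side of the pore, with Kcna and Kcnc channels among the more sensitive. Picrotoxin blocks the chloride pore of GABA-A receptors, and the combination is widely used to drive synchronous firing in slices.

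Mef2c did not follow the genotype labels at the level of the whole gene. It had 883, 1129 and 995 CPM in vehicle slices without Cre and 2143, 2209 and 2449 CPM in vehicle slices labelled Cre. After treatment it had 974, 1225 and 1041 CPM without Cre and 2220, 1944 and 2304 CPM in libraries labelled Cre. All libraries labelled Cre were above all others, with log2 differences of 1.18 ± 0.11 (SE) with vehicle and 1.00 ± 0.11 after treatment (limma, adjusted p = 2.64e-05 and 9.77e-05). An exact two-sided permutation test of the CPM gave p = 0.1 in both, the smallest p that 3 against 3 can give. The value sums reads over the whole gene and does not isolate the floxed exon, so it does not show whether recombination took place. Directions below are between libraries as labelled.

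The libraries held 82235674 to 140390406 counted reads. A single read equalled 0.00712 to 0.0122 CPM, and 3 reads, the limit that a count of 0 allows, 0.0214 to 0.0365 CPM (counting error only). Mitochondrial transcripts took 3.03% to 5.44% of reads. All 8 immediate early genes listed as a check of the treatment rose in both genotypes, for example Fos from 22.5, 57.9 and 28.04 to 1631, 1643 and 1552 CPM without Cre. The 8 summed to 327 to 530, then 9720 to 11418 CPM without Cre. In libraries labelled Cre they summed to 256 to 313, then 7100 to 7598 CPM. In those libraries 3 of the 8 were called lower, both with vehicle and after treatment (37.5%, against 10.1% and 5.95% of all tested genes). The part of this in the channel differences was not tested. Vehicle library 2 without Cre was the highest of its group for Fos and for Npas4 (69.6 CPM against 20.003 and 10.7). Vehicle library 1 without Cre held the highest sum of 8 fibroblast and meninges markers, 303 CPM against 118 to 244 CPM over the other 11 libraries. The 10 inhibitory neuron markers summed to 511 to 523 CPM with vehicle and 465 to 699 CPM after treatment without Cre, and to 631 to 681 and 653 to 800 CPM in libraries labelled Cre. In both treated groups the library with number 1 had the highest of these sums. The 9 microglial markers in the table summed to 347 to 435, 275.3 to 308, 251 to 331 and 219 to 281 CPM in the same order of groups. Of the 9, 2 fell with treatment without Cre and 1 in libraries labelled Cre. Those shares were 22.2% and 11.1%, where 9.34% and 10.3% of all tested genes were called lower. Of 9 tested endothelial and mural markers 4 fell with treatment without Cre (Pdgfrb, Kdr, Cspg4 and Vtn) and 1 in libraries labelled Cre (Pdgfrb). Those shares were 44.4% and 11.1%, against the same 9.34% and 10.3%. The median log2 differences were -0.44 and -0.14, and the 10 genes of that list summed to 107 to 137, 73.4 to 103, 89.0 to 111 and 87.6 to 102 CPM. The part of these cells in the treatment differences of the channel genes was not tested. Slices expressed markers of excitatory neurons (10 genes summing to 7247 to 9249 CPM) and astrocytes (10 genes, 15429 to 21703 CPM) throughout, as brain tissue does.

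Levels of different genes can be compared only per length of transcript, and CPM were therefore divided by kilobases of merged exons. Kcnj10, which encodes the inward rectifier Kir4.1 of astrocytes, was the highest at 151.9 CPM per kb over the 12 libraries. It was followed by Kcnj4 (Kir2.3) at 46.6, the beta subunit gene Kcnab2 at 43.6 and Kcnh3 at 31.2 CPM per kb. Among the voltage-gated genes, Kcna6 led the Kcna family at 22.3 and Kcnd2 the Kcnd family at 15.6 CPM per kb, and Kcnc4 lay at 19.3 CPM per kb. Kcna2 had more CPM than Kcna6 (150 against 133) but longer merged exons (11.906 against 5.945 kb). The order thus depends on the annotated length, which need not be the length expressed. Kcnk1 led the Kcnk family at 27.3, Kcnf1 the modifier subunits at 25.7, Kcnq3 the Kcnq family at 18.4 and Kcnma1 the Kcnm, Kcnn, Kcnt and Kcnu genes at 15.8 CPM per kb. The lowest of the 72 was Kcnh6 at 0.299 CPM per kb.

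**Figure D1:**
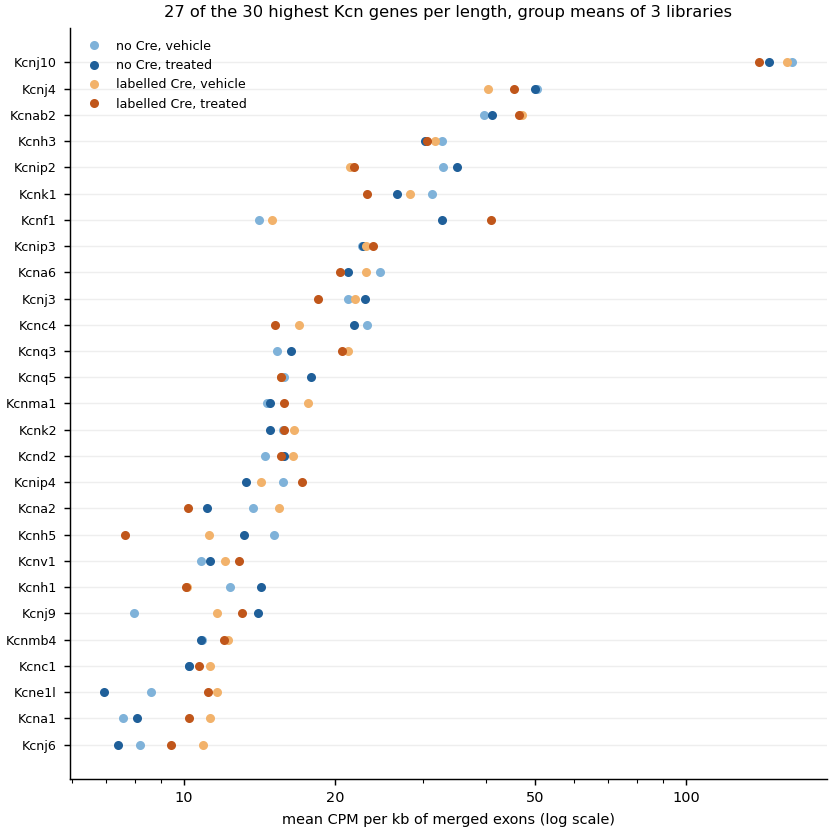
Levels of 27 of the 30 highest of the 72 Kcn genes in CPM per kb of merged exons (log axis), as the mean of 3 libraries in each of the 4 groups. Kcnj10 stands above all others in every group, and the 4 group means of most genes lie close together, with Kcnf1 as the widest spread between treated and vehicle slices.

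Treatment raised or lowered few potassium channel genes, and the largest of these differences was a rise of Kcnf1. In slices without Cre 7 of the 72 passed the test (9.72%), 3 higher and 4 lower, where 12.6% of the 13048 tested genes passed, 3.24% higher and 9.34% lower. In libraries labelled Cre 13 passed (18.1%), 4 higher and 9 lower, where 14.1% of all tested genes passed, 3.79% higher and 10.3% lower. The shares of called members were thus near those of all tested genes. The median log2 difference of the 72 genes was -0.03 without Cre and -0.05 in libraries labelled Cre, and over all tested genes it was -0.06 and -0.03. Each test was limma on log2(CPM + 1), with Benjamini-Hochberg adjustment over all tested genes and a threshold of 0.05. When libraries were scaled by median ratios in place of total reads, the split of called members was 4 higher and 1 lower without Cre and 4 higher and 6 lower in libraries labelled Cre, and the share of higher genes among all calls went from 25.8% to 48.7% and from 27.0% to 38.1%. Without Cre, the count of 7 rested on single libraries: it was 1 without vehicle library 1, 3 without vehicle library 2 or 3, 4 without treated library 2, and 11 without treated library 1 labelled Cre, which enters through the shared estimate of spread. It was also 4 without any 1 vehicle library labelled Cre or treated library 3 labelled Cre. The count of 13 was 7 without vehicle library 1, and 8 without vehicle library 3 or treated library 3, of those labelled Cre.

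Kcnf1 rose and Kcna2 and Kcnk1 fell in both genotypes, which share no library but share the fit's estimate of spread. They were 1 of 3 and 1 of 4 called rises (33.3% and 25.0%) and 2 of 4 and 2 of 9 called falls (50% and 22.2%), and no gene was called in opposite directions. The same overlaps were not counted over all tested genes. Without Cre, the Kcna2 and Kcnk1 calls were lost under median-ratio scaling (limma adjusted p = 0.0547 and 0.165). The test of the difference between the 2 treatment effects is given at the end.

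Differences between libraries labelled Cre and those without were called for more of the 72 genes. With vehicle 23 passed (31.9%), 14 higher and 9 lower in libraries labelled Cre, where 19.3% of all tested genes passed, 9.18% higher and 10.1% lower. After treatment 16 passed (22.2%), 8 higher and 8 lower, where 13.5% of all tested genes passed, 7.50% higher and 5.95% lower. The median log2 difference of the 72 genes was 0.05 with vehicle and 0.06 after treatment, against 0.00 and 0.02 over all tested genes. Of the higher genes 7 were called under both conditions (50% of the 14 and 87.5% of the 8), among them Kcne1l, Kcnj6, Kcnj12, Kcnq3, Kcns2 and Kcns3. Of the lower genes 6 were called under both (66.7% of the 9 and 75.0% of the 8): Kcnc4, Kcnd1, Kcnh4, Kcnh5, Kcnip2 and Kcnk4. The vehicle count was 13 without vehicle library 1 and 14 without vehicle library 3, both without Cre, and 14 without vehicle library 2 labelled Cre. With only the libraries compared in the fit, the calls of Kcnh1, Kcnj3, Kcnj6, Kcnk4, Kcnq3 and Kcns3 after treatment were lost (adjusted p 0.0541 to 0.207). Neuronal and glial markers also differed between these libraries with vehicle: 4 of 10 excitatory and 3 of 10 inhibitory markers were higher in libraries labelled Cre, and 2 excitatory, 2 of 10 astrocyte and 4 of 9 microglial markers were lower. Of 10 markers of hippocampal fields, 8 were above 1 CPM, 3 were higher and 1 lower, and their sums were 659 to 688 CPM without Cre and 732 to 764 CPM in libraries labelled Cre. The part of these markers in the channel differences was not tested. In all, 35 of the 72 genes were called in at least 1 of the 4 comparisons and 37 in none. Neither these counts nor the overlaps between conditions were made for all tested genes, so they have no background to be read against.

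The upstream sequences of 4 genes that the results below turn on are shown, because Kcnf1 and Kcna2 were called in opposite directions in both genotypes, Kcna4 had the smallest p of the 72 genes in the interaction test, and Kcnj9 rose after treatment without Cre. Each line gives 300 bases of RefSeq GRCm38.p6 (the mm10 assembly), 250 before and 50 after an annotated start, 5′ to 3′ on the gene's strand. Kcnf1 lies at chr12:17176839-17177138 (minus), Kcna2 at chr3:107101317-107101616 (plus), Kcna4 at chr2:107290339-107290638 (plus) and Kcnj9 at chr1:172329273-172329572 (minus). RefSeq promoters were matched for 49 of the 72 genes. Capitals mark matches, on either strand, to motifs of activity-regulated factors: the CRE (TGACGTCA), AP-1 (TGANTCA), EGR (GCGNGGGCG), MEF2 and the CArG box.
Kcnf1: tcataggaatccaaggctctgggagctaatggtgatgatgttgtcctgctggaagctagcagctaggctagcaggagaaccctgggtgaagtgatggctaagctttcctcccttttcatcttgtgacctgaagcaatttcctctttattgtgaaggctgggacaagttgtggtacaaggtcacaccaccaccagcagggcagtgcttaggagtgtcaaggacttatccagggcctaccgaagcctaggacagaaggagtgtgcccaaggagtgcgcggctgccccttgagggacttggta
Kcna2: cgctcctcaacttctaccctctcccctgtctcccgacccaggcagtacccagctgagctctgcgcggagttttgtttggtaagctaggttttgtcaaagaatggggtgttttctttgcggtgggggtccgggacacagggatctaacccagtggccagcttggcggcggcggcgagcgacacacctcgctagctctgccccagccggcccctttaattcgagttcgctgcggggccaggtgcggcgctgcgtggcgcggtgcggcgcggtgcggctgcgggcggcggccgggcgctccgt
Kcna4: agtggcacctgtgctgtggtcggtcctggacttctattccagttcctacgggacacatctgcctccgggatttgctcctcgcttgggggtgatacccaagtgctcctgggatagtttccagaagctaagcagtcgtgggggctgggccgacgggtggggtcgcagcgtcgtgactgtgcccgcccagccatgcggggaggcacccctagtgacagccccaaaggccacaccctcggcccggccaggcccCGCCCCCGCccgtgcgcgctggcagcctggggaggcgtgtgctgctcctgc
Kcnj9: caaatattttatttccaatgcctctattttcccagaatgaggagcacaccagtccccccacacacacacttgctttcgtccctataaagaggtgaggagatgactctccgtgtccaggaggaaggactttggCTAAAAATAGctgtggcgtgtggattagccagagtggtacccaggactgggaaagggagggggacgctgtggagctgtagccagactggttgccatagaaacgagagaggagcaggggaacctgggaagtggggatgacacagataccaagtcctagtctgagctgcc
The Kcna4 window held 1 EGR match at the annotated start, and the Kcnj9 window held 1 MEF2 match that begins 118 bases before it. Among 27025 RefSeq promoter windows of this length, 5.55% held an EGR and 3.26% a MEF2 match, 1.88% a CRE, 7.93% an AP-1 and 1.57% a CArG box match. These shares and those that follow count only the first listed window of each gene, and the 49 matched Kcn genes had 72 windows. Of the 49 matched Kcn genes, 2 held an EGR, 2 a MEF2 and 2 an AP-1 match (4.08% each). For the CRE and the CArG box the number was 0. The 4 windows shown were chosen by expression results and so do not represent the 49. None of these letters stood in the Kcnf1 and Kcna2 windows. A match is a string of letters and says nothing of binding. The annotated starts of Kcna4 and Kcnj9 used here do not lie within a GENCODE transcript of those genes.

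Among the Kcna genes, which encode the Kv1 channels of axons and terminals, Kcna2 fell with treatment and Kcna4 differed most between the genotypes. Kcna2, the Kv1.2 subunit, had 162, 171 and 158 CPM with vehicle and 133, 141 and 122 CPM after treatment without Cre. Libraries labelled Cre had 186, 183 and 185 CPM with vehicle and 137, 106 and 121 CPM after treatment. Every treated library was below every vehicle library of its genotype, with log2 differences of -0.31 ± 0.08 (limma adjusted p = 0.0298) and -0.61 ± 0.08 (adjusted p = 0.00035). The fall in libraries labelled Cre stayed called without each library in turn (highest adjusted p 0.00264). The one without Cre ended without any 1 of vehicle libraries 1 to 3 or treated libraries 1 and 3 of that genotype (adjusted p 0.0583 to 0.108), and under median-ratio scaling (0.0547).

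Kcna4, the fast-inactivating Kv1.4 subunit, had 7.71, 8.73 and 6.602 CPM with vehicle and 6.28, 6.43 and 4.84 CPM after treatment without Cre. The Cre-labelled libraries had 7.82, 9.001 and 9.45 CPM with vehicle and 13.4, 12.1 and 11.6 CPM after treatment. Treated libraries thus lay above vehicle libraries in those labelled Cre and below them in the others. The rise in libraries labelled Cre had a log2 difference of 0.46 ± 0.12 (adjusted p = 0.0191), and it missed the threshold without vehicle library 1 or 2 or treated library 1 of that group pair (0.0501 to 0.093). Without Cre the log2 difference was -0.34 ± 0.12 (adjusted p = 0.079). Between treated slices, Kcna4 was higher in libraries labelled Cre by 0.97 ± 0.12 on the log2 scale (adjusted p = 0.000219), a call that stayed with each library left out.

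Kcna1, the Kv1.1 subunit of axons, had 37.4, 37.9 and 33.2 CPM with vehicle without Cre and 54.6, 53.5 and 53.4 CPM with vehicle in libraries labelled Cre. It was higher in the latter by 0.56 ± 0.14 on the log2 scale (adjusted p = 0.0143), except that without vehicle library 3 without Cre the adjusted p was 0.060. After treatment it had 47.8, 35.4 and 32.2 CPM without Cre and 58.0, 42.1 and 46.8 CPM in libraries labelled Cre, and treated and vehicle libraries overlapped. The other 3 Kcna genes passed in no comparison. Kcna6 (Kv1.6) had 149, 143 and 146 CPM with vehicle and 132, 121 and 126 CPM after treatment without Cre, with no overlap but an adjusted p of 0.118. Its values were 152, 133 and 127, then 113, 137 and 115 CPM in libraries labelled Cre, which overlap. Kcna3 (Kv1.3) ranged from 3.91 to 6.55 CPM over the 12 libraries and Kcna5 (Kv1.5) from 0.731 to 1.84 CPM, with overlapping treated and vehicle libraries in both genotypes. Summed over the 6 genes, Kcna transcripts came to 352 to 367 and 290 to 326 CPM with vehicle and after treatment without Cre, and to 381 to 408 and 300 to 329 CPM in libraries labelled Cre, of which Kcna2 made up 43.9%.

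The Kcnb genes encode the Kv2 delayed rectifiers of cell bodies and dendrites. Kcnb2 (Kv2.2) had 30.5, 33.0 and 30.1, then 24.0, 30.9 and 26.8 CPM without Cre, and 29.6, 27.7 and 33.0, then 28.02, 24.7 and 28.5 CPM in libraries labelled Cre. Treated and vehicle libraries overlapped in both genotypes, and the gene passed nowhere, with treatment differences of -0.20 ± 0.10 and -0.15 ± 0.10 on the log2 scale.

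The Kcnc genes encode the Kv3 channels of fast-spiking neurons, and Kcnc4 was the 1 of 4 that passed a test. Kcnc4 (Kv3.4) had 85.7, 83.0 and 86.3 CPM with vehicle and 72.7, 80.3 and 87.5 CPM after treatment without Cre. Libraries labelled Cre had 60.0, 64.9 and 61.3, then 49.1, 62.6 and 55.3 CPM, all below every library without Cre. The log2 differences between the genotypes were -0.45 ± 0.09 with vehicle (adjusted p = 0.00443) and -0.52 ± 0.09 after treatment (adjusted p = 0.00182), and both stayed called with each library left out. Treated and vehicle libraries overlapped in both genotypes.

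Kcnc1 (Kv3.1), a channel of parvalbumin interneurons, had 93.7, 101 and 95.5 CPM with vehicle and 120, 92.2 and 78.4 CPM after treatment without Cre. In libraries labelled Cre the values were 102, 105 and 113, then 119, 85.2 and 101 CPM. Kcnc2 (Kv3.2) had 23.5, 23.5 and 25.8, then 40.3, 29.1 and 18.3 CPM without Cre, and 41.4, 36.3 and 38.7, then 45.9, 25.9 and 34.1 CPM in libraries labelled Cre. Both genes were highest in library 1 of each treated group, the libraries whose inhibitory markers summed to 699 and 800 CPM against 465 to 671 CPM in the other 4 treated libraries. The part of those cells in the spread was not tested. Neither gene passed for treatment, where the log2 differences of Kcnc2 were 0.19 ± 0.23 and -0.17 ± 0.23. With vehicle, Kcnc2 lay higher in all libraries labelled Cre (0.65 ± 0.23), with an adjusted p of 0.0691.

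All 3 Kcnd genes, which encode the Kv4 channels of the dendritic A-type current, were called between the genotypes with vehicle, in opposite directions. In libraries labelled Cre 2 were higher and 1 lower (66.7% and 33.3%, against 9.18% and 10.1% of all tested genes). After treatment Kcnd1 alone was called, as lower (33.3%, against 5.95%). Kcnd1 had 17.1, 18.2 and 18.1 CPM with vehicle and 14.9, 15.0 and 16.7 CPM after treatment without Cre. The Cre-labelled libraries had 14.5, 12.9 and 15.4, then 11.6, 11.9 and 11.3 CPM, below the matching libraries without Cre. It differed by -0.30 ± 0.07 on the log2 scale with vehicle (adjusted p = 0.0163) and -0.39 ± 0.07 after treatment (adjusted p = 0.00466). The vehicle call missed the threshold without vehicle library 2 or 3 without Cre or vehicle library 2 labelled Cre (0.0518 to 0.0712), and the treated call stayed with each library left out. Its fall with treatment in libraries labelled Cre (-0.27 ± 0.07, adjusted p = 0.0288) gave 0.0632 with a replicate block within genotype, 0.0821 under median-ratio scaling, and 0.101 to 0.124 without vehicle library 1 or 3 or treated library 3 labelled Cre.

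Kcnd2 (Kv4.2) had 72.6, 76.6 and 74.7, then 78.1, 82.3 and 84.1 CPM without Cre. In libraries labelled Cre it had 83.5, 84.1 and 87.0, then 80.8, 77.4 and 83.2 CPM. With vehicle the genotypes did not overlap, by 0.18 ± 0.05 (adjusted p = 0.0304), but the call missed the threshold without any 1 of the 6 vehicle libraries (0.0501 to 0.123). Kcnd3 (Kv4.3) had 39.2, 43.4 and 42.1, then 43.2, 37.9 and 35.7 CPM without Cre, and 53.4, 50.7 and 47.3, then 47.8, 43.2 and 44.9 CPM in libraries labelled Cre. It was higher in vehicle libraries labelled Cre by 0.27 ± 0.08 (adjusted p = 0.0307), a call lost without vehicle library 1 or 3 without Cre or vehicle library 1 or 2 labelled Cre (0.0749 to 0.129).

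**Figure D2:**
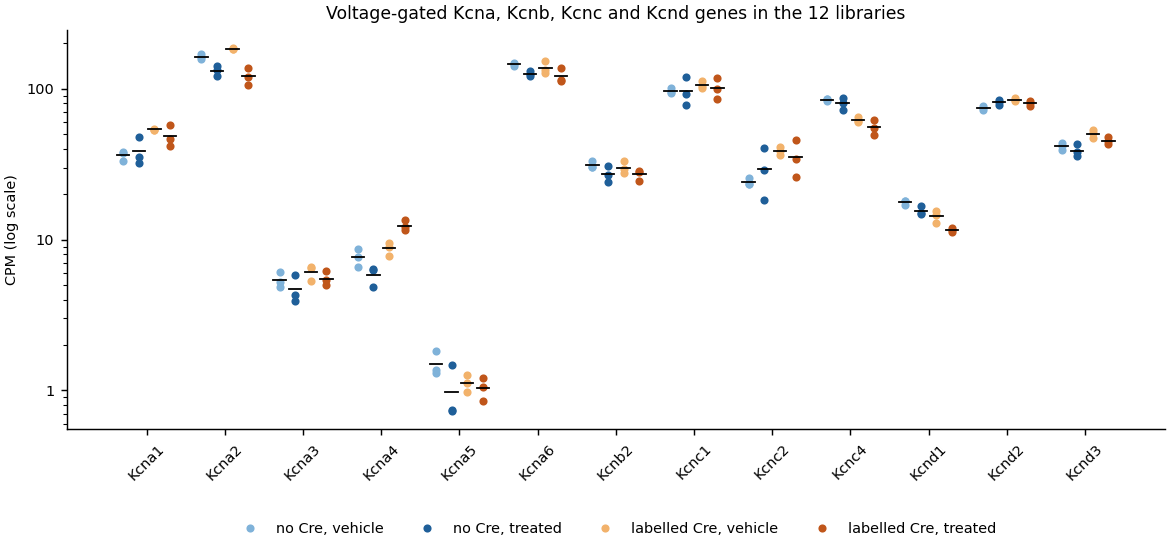
CPM (log axis) of 13 of the 15 Kcna, Kcnb, Kcnc and Kcnd genes in each of the 12 libraries (points, coloured by group) with the group mean (black line). Treated libraries lie below vehicle libraries for Kcna2 in both genotypes, libraries labelled Cre lie below the others for Kcnc4, and 1 library of each treated group stands high for Kcnc1 and Kcnc2.

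Auxiliary subunits bind these channels and set their gating and surface delivery, and Kcnip2 had the smallest p of the 72 genes between the genotypes. Kcnip2 encodes KChIP2, a calcium-binding partner of Kv4 channels. It had 113, 119 and 110, then 126, 121 and 118 CPM without Cre, and 69.4, 75.8 and 77.9, then 73.0, 75.0 and 79.2 CPM in libraries labelled Cre. No library labelled Cre reached any library without Cre. The log2 differences were -0.61 ± 0.06 with vehicle (adjusted p = 5.51e-05) and -0.68 ± 0.06 after treatment (adjusted p = 2.28e-05), and both stayed called in every alternative tried. Kcnip1, Kcnip3 and Kcnip4, the other KChIP genes, passed in no comparison, with vehicle differences between the genotypes of 0.18 ± 0.09, 0.02 ± 0.07 and -0.13 ± 0.17.

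Kcne1l, a single-span beta subunit also called Kcne5, was higher in libraries labelled Cre under both conditions. It had 14.7, 12.05 and 13.1, then 11.4, 10.3 and 10.4 CPM without Cre, and 19.1, 18.2 and 16.6, then 15.9, 18.1 and 17.8 CPM in libraries labelled Cre. The log2 differences were 0.41 ± 0.09 (adjusted p = 0.00613) and 0.64 ± 0.09 (adjusted p = 0.000433). Its fall with treatment without Cre (-0.28 ± 0.09, adjusted p = 0.0487) was lost in 17 of 24 alternatives. Among them were leaving out vehicle library 1 or 3 or treated library 2 or 3 without Cre, or vehicle library 1, 2 or 3 or treated library 3 labelled Cre (0.0538 to 0.208).

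Of the Kv1 beta subunits, Kcnab2 had 229, 217 and 218 CPM with vehicle without Cre and 251, 269 and 270 CPM with vehicle in libraries labelled Cre (0.25 ± 0.07, adjusted p = 0.0251). The call was lost without any 1 of the vehicle libraries except library 1 labelled Cre (0.0556 to 0.088), and under median-ratio scaling (0.0507). Kcnab1 and Kcnab3 passed nowhere. Kcnab3 had 11.8, 14.0 and 13.5, then 30.9, 22.2 and 13.1 CPM without Cre, and 15.5, 20.4 and 16.7, then 26.9, 16.4 and 16.7 CPM in libraries labelled Cre. Its highest values were in library 1 of each treated group, as for Kcnc1 and Kcnc2.

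The modifier subunits form no channel alone and change Kv2 channels when they join them, and Kcnf1 among them had the largest treatment response of the 72 genes by p. Kcnf1 (Kv5.1) had 60.7, 72.6 and 69.4 CPM with vehicle and 200.7, 155 and 114 CPM after treatment without Cre. Libraries labelled Cre had 62.1, 75.5 and 77.7, then 206, 191 and 191 CPM. Treated libraries were above all vehicle libraries in both genotypes, with log2 differences of 1.17 ± 0.16 (adjusted p = 0.000342) and 1.44 ± 0.16 (adjusted p = 6.55e-05). Both calls stayed in every alternative tried, with log2 differences of 0.97 to 1.38 and 1.34 to 1.503. The gene lies at chr12:17172100-17176888 on the minus strand (GENCODE M21, GRCm38), and its upstream sequence shown above held none of the 5 motifs.

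Kcng1 (Kv6.1) moved with both treatment and genotype. It had 16.0, 16.9 and 14.2, then 11.6, 13.6 and 8.75 CPM without Cre, and 25.4, 24.3 and 29.7, then 12.6, 16.9 and 16.6 CPM in libraries labelled Cre. With vehicle it was higher in libraries labelled Cre by 0.71 ± 0.15 (adjusted p = 0.00622), and there it fell with treatment by 0.75 ± 0.15 (adjusted p = 0.00404). Both calls stayed with each library left out. Without Cre the treatment difference was -0.46 ± 0.15 (adjusted p = 0.0644), with no overlap.

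Kcns2 (Kv9.2) had 22.1, 23.3 and 24.5, then 22.3, 19.0 and 20.6 CPM without Cre, and 32.3, 33.8 and 35.2, then 26.1, 29.5 and 28.6 CPM in libraries labelled Cre. It was higher in libraries labelled Cre by 0.52 ± 0.07 with vehicle (adjusted p = 0.000712) and 0.43 ± 0.07 after treatment (adjusted p = 0.00234). Its fall with treatment in libraries labelled Cre (-0.26 ± 0.07, adjusted p = 0.0344) gave 0.0613 with a replicate block within genotype and 0.0898 under median-ratio scaling. It also gave 0.0535 to 0.125 without vehicle library 2 without Cre, any 1 vehicle library labelled Cre, or treated library 1 or 3 labelled Cre. Kcns3 (Kv9.3) had 4.35, 4.32 and 3.92, then 3.52, 3.17 and 2.96 CPM without Cre, and 5.74, 5.78 and 5.86, then 5.14, 4.27 and 4.61 CPM in libraries labelled Cre. The genotypes differed by 0.39 ± 0.08 and 0.43 ± 0.08 (adjusted p = 0.00747 and 0.00488). Its fall without Cre (-0.30 ± 0.08, adjusted p = 0.0311) was lost without vehicle library 1 or 2 or treated library 2 or 3 of that genotype or treated library 3 labelled Cre (0.0508 to 0.118). Kcng2, Kcng4, Kcns1 and Kcnv1 passed in no comparison.

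**Figure D3:**
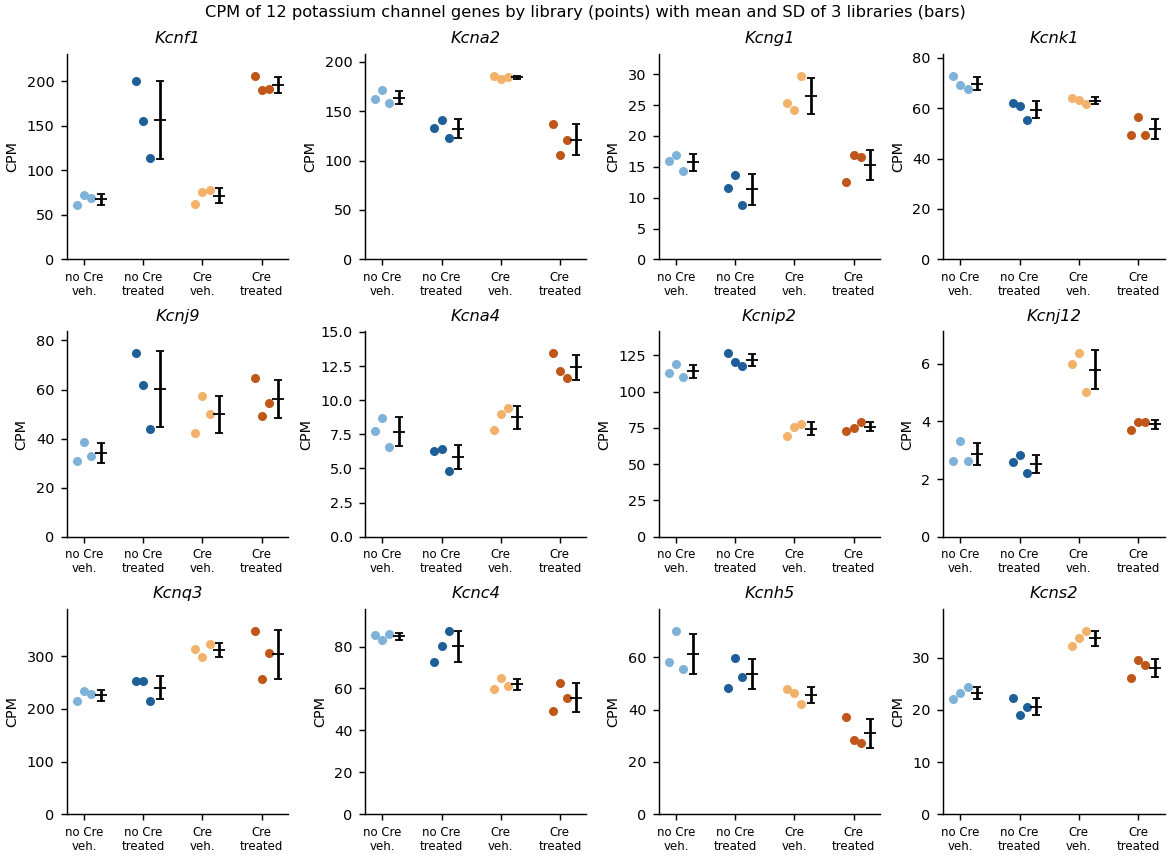
CPM of 12 Kcn genes in each library (coloured points), with the mean and SD of the 3 libraries of a group (black bars), each axis starting at 0. Kcnf1 rises from 60.7 to 77.7 CPM in vehicle libraries to 114 to 206 CPM in treated ones, and Kcnip2 lies at 110 to 126 CPM without Cre and 69.4 to 79.2 CPM in libraries labelled Cre.

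The Kcnq genes encode the slow M-current channels that limit repetitive firing, and Kcnq3, a subunit of those channels in neurons, was higher in libraries labelled Cre. Kcnq3 had 215, 234 and 228, then 252, 253 and 216 CPM without Cre, and 315, 298 and 324, then 348, 256 and 307 CPM in libraries labelled Cre. Its difference was 0.47 ± 0.10 with vehicle (adjusted p = 0.00735), which stayed with each library left out. After treatment it was 0.33 ± 0.10 (adjusted p = 0.0478), and that call was lost without any 1 library except treated library 1 without Cre and treated library 2 labelled Cre (0.0627 to 0.169).

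Kcnq1, better known from heart, had 1.85, 1.74 and 2.15 CPM with vehicle without Cre and 1.35, 1.01 and 1.28 CPM with vehicle in libraries labelled Cre (-0.40 ± 0.13, adjusted p = 0.0448). That call was lost without any 1 vehicle library or treated library 3 labelled Cre (0.0606 to 0.158). Kcnq5 passed nowhere. No Kcnq gene passed for treatment, where the differences of Kcnq3 were 0.09 ± 0.10 and -0.05 ± 0.10. Kcnq transcripts summed to 546 to 615 and 597 to 662 CPM without Cre and 737 to 770 and 672 to 814 CPM in libraries labelled Cre, of which Kcnq3 made up 39.9%.

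Among the Kcnj genes, which encode inward rectifiers, members of the GIRK, Kir2 and Kir6 groups were called, and the astrocyte channel genes Kcnj10 and Kcnj16 were not. Kcnj10 had 910, 937 and 794, then 666, 917 and 790 CPM without Cre, and 909, 809 and 855, then 775, 712 and 779 CPM in libraries labelled Cre. Its treatment differences were -0.16 ± 0.10 and -0.18 ± 0.10 (adjusted p = 0.346 and 0.309). Kcnj16 (Kir5.1) had differences of -0.20 ± 0.09 and -0.24 ± 0.09 (adjusted p = 0.213 and 0.125).

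GIRK channels are opened by G-protein-coupled receptors. Kcnj9 (GIRK3) had 30.8, 38.7 and 33.1 CPM with vehicle and 74.7, 61.9 and 43.9 CPM after treatment without Cre, where it rose by 0.77 ± 0.17 (adjusted p = 0.0113) with no overlap. Without vehicle library 1 the adjusted p was 0.0545. The Cre-labelled libraries had 42.2, 57.5 and 49.9, then 64.6, 49.1 and 54.5 CPM, which overlap (0.17 ± 0.17, adjusted p = 0.628). Kcnj6 (GIRK2) had 60.5, 65.3 and 61.1, then 56.7, 56.5 and 56.3 CPM without Cre, and 87.0, 84.8 and 77.6, then 81.4, 67.6 and 66.7 CPM in libraries labelled Cre. It was higher in the latter by 0.41 ± 0.08 with vehicle (adjusted p = 0.00374) and by 0.34 ± 0.08 after treatment (adjusted p = 0.0121, or 0.0891 with only the libraries compared in the fit). Kcnj3 (GIRK1) had 106, 120 and 107, then 117, 125 and 115 CPM without Cre, and 110, 114 and 120, then 101, 86.3 and 102 CPM in libraries labelled Cre. After treatment it was lower in libraries labelled Cre, with a log2 difference of -0.31 ± 0.08 (adjusted p = 0.019), or 0.0771 without treated library 2 without Cre.

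Kir2 channels hold the membrane near rest. Kcnj12 (Kir2.2) had 2.64, 3.31 and 2.64, then 2.58, 2.83 and 2.20 CPM without Cre, and 5.99, 6.36 and 5.04, then 3.72, 3.99 and 3.99 CPM in libraries labelled Cre. It was higher in libraries labelled Cre by 0.81 ± 0.10 with vehicle (adjusted p = 0.000302) and 0.47 ± 0.10 after treatment (adjusted p = 0.00956), and it fell with treatment in libraries labelled Cre by 0.47 ± 0.10 (adjusted p = 0.00868). All 3 calls stayed with each library left out.

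Kcnj4 (Kir2.3) had 113, 110 and 103, then 113, 102 and 107 CPM without Cre, and 76.2, 93.4 and 91.0, then 100, 95.5 and 97.8 CPM in libraries labelled Cre. With vehicle it was lower in libraries labelled Cre, with a log2 difference of -0.32 ± 0.08 (adjusted p = 0.013), or 0.064 without vehicle library 1 without Cre. Kcnj2 (Kir2.1) had 4.32, 5.37 and 5.43, then 13.6, 9.94 and 7.91 CPM without Cre, where it rose by 0.90 ± 0.25 (adjusted p = 0.0346). That call was lost in 8 of 12 leave-one-out fits: without any 1 of the 6 vehicle libraries of either genotype, or treated library 1 or 2 without Cre (0.0501 to 0.132). In libraries labelled Cre Kcnj2 had 7.06, 6.75 and 7.79, then 15.1, 5.83 and 10.8 CPM, which overlap. Treated library 1 of each genotype was highest for Kcnj2 and Kcnj9, as it was for Kcnc2. Kir2.4 (Kcnj14) passed nowhere.

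Kcnj11 encodes Kir6.2, the pore of ATP-sensitive channels. It had 19.9, 22.0 and 19.2, then 16.8, 17.9 and 14.4 CPM without Cre (-0.30 ± 0.11, adjusted p = 0.0969), and 20.1, 19.0 and 22.6, then 12.6, 14.5 and 17.0 CPM in libraries labelled Cre. There it fell by 0.46 ± 0.11 (adjusted p = 0.0127), or 0.0622 without vehicle library 3 of those labelled Cre. Kcnj8 (Kir6.1), found in vascular cells, ranged from 0.896 to 1.54 CPM and passed nowhere.

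The Kcnk genes encode leak channels with a pair of pore domains. Kcnk1 (TWIK1) had 72.8, 69.1 and 67.5, then 61.9, 60.7 and 55.5 CPM without Cre, and 64.2, 63.4 and 61.5, then 49.5, 56.5 and 49.5 CPM in libraries labelled Cre. Treated libraries were below vehicle libraries in both genotypes, with log2 differences of -0.23 ± 0.07 (adjusted p = 0.0397) and -0.28 ± 0.07 (adjusted p = 0.013). Without Cre the call was lost in 16 of 24 alternatives, with 0.165 under median-ratio scaling, and without any 1 vehicle library of either genotype, treated library 2 or 3 without Cre or treated library 3 labelled Cre (0.0533 to 0.161). In libraries labelled Cre it was lost without vehicle library 1 or treated library 3 labelled Cre (0.0574 and 0.063).

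Kcnk13 (THIK1), known from microglia, had 1.65, 1.78 and 1.88, then 2.01, 2.37 and 1.99 CPM without Cre, and 1.28, 1.56 and 1.32, then 3.64, 2.17 and 2.79 CPM in libraries labelled Cre. It rose in libraries labelled Cre by 0.68 ± 0.12 (adjusted p = 0.00231), a call that stayed with each library left out. The summed microglial markers of the same libraries were 251 to 331 CPM with vehicle and 219 to 281 CPM after treatment. The part of microglia in the rise of Kcnk13 was not tested. Kcnk10 (TREK2) had 21.2, 24.8 and 24.2, then 28.1, 34.7 and 25.0 CPM without Cre, and 22.6, 21.6 and 23.8, then 35.1, 26.02 and 32.5 CPM in libraries labelled Cre. Its rise there (0.43 ± 0.12, adjusted p = 0.0345) was lost without vehicle library 3 without Cre, any 1 vehicle library labelled Cre, or treated library 1 or 3 labelled Cre (0.0505 to 0.115), and with a replicate block over all libraries (0.058).

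Between the genotypes, Kcnk4 (TRAAK) was lower in libraries labelled Cre. It had 16.7, 17.5 and 17.6, then 14.5, 17.0 and 19.96 CPM without Cre, and 10.3, 11.4 and 13.5, then 11.5, 11.4 and 12.001 CPM in libraries labelled Cre (-0.53 ± 0.11, adjusted p = 0.00676, with vehicle, and -0.51 ± 0.11, adjusted p = 0.0087, after treatment). Kcnk3 (TASK1) had 23.8, 24.5 and 23.6 against 21.1, 20.7 and 20.02 CPM with vehicle (-0.21 ± 0.06, adjusted p = 0.0275), a call lost without any 1 of the 6 vehicle libraries (0.0508 to 0.0972). Kcnk2, Kcnk6, Kcnk9 and Kcnk12 passed in no comparison.

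The Kcnh genes encode the EAG, ERG and ELK channels. Of the 7, 2 were called lower in libraries labelled Cre with vehicle and 3 after treatment. Those shares were 28.6% and 42.9%, against 10.1% and 5.95% of all tested genes. Kcnh5 (EAG2) had 58.2, 70.2 and 55.6, then 48.4, 59.7 and 52.6 CPM without Cre, and 48.1, 46.5 and 42.3, then 37.4, 28.3 and 27.3 CPM in libraries labelled Cre. It fell with treatment in libraries labelled Cre by 0.56 ± 0.12 (adjusted p = 0.00852), with -0.19 ± 0.12 (adjusted p = 0.353) without Cre. It was lower in libraries labelled Cre, with a log2 difference of -0.78 ± 0.12 after treatment (adjusted p = 0.00131) and -0.41 ± 0.12 with vehicle (adjusted p = 0.0352). The last call was lost without vehicle library 1 or 2 without Cre or any 1 vehicle library labelled Cre (0.0588 to 0.124).

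Kcnh4 (an ELK channel) had 5.16, 5.75 and 5.16, then 6.31, 6.17 and 6.96 CPM without Cre, and 3.05, 3.44 and 4.65, then 4.05, 3.44 and 3.92 CPM in libraries labelled Cre. It was lower there, with a log2 difference of -0.44 ± 0.11 with vehicle (adjusted p = 0.0191) and -0.64 ± 0.11 after treatment (adjusted p = 0.00287). The vehicle call was lost without vehicle library 1 or 2 of either genotype (0.053 to 0.0757). Kcnh1 (EAG1) had 108, 107 and 99.6 CPM after treatment without Cre and 88.4, 69.0 and 64.8 CPM in libraries labelled Cre (-0.50 ± 0.10, adjusted p = 0.00532, or 0.0579 with only the libraries compared in the fit). Kcnh2, Kcnh3, Kcnh6 and Kcnh7 passed nowhere.

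Of the 9 Kcnm, Kcnn, Kcnt and Kcnu genes, mainly of calcium- and sodium-activated channels, 2 were called, both higher in vehicle libraries labelled Cre. That was 22.2%, where 9.18% of all tested genes were called higher. Kcnma1, the BK channel pore, had 246, 265 and 235 CPM without Cre and 304, 307 and 291 CPM in libraries labelled Cre (0.27 ± 0.07, adjusted p = 0.0202). Kcnn1, the small-conductance channel SK1, had 16.4, 20.3 and 17.1 against 23.1, 20.9 and 23.5 CPM (0.32 ± 0.09, adjusted p = 0.0293). Both calls were lost without vehicle library 1 or 3 without Cre or vehicle library 1 labelled Cre, and also without vehicle library 2 for Kcnma1 and 3 for Kcnn1 of those labelled Cre (0.059 to 0.0848 and 0.0846 to 0.129). None of the 9 passed for treatment. The sodium-activated channel gene Kcnt2 had 20.8, 24.0 and 24.4, then 33.5, 32.0 and 27.3 CPM without Cre, with no overlap and an adjusted p of 0.124.

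**Figure D4:**
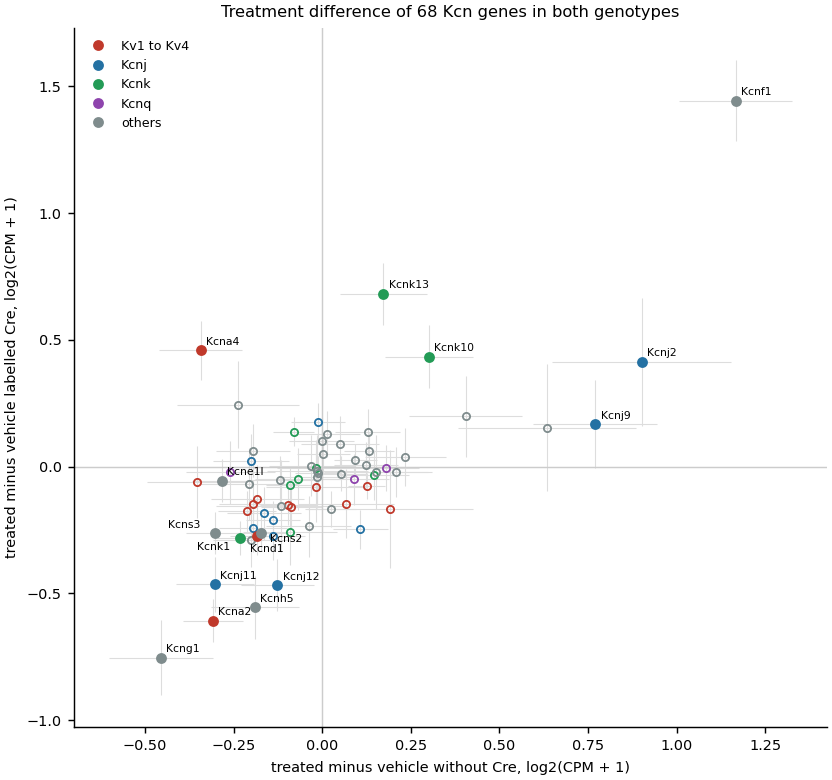
Log2 difference of CPM + 1, treated minus vehicle, of 68 of the 72 Kcn genes without Cre (x axis) and in libraries labelled Cre (y axis), coloured by family, with SE as grey bars. Filled and named genes passed in at least 1 of the 2 comparisons. Kcnf1 lies apart at 1.17 and 1.44, Kcna2 at -0.31 and -0.61, and most genes lie close to 0 on both axes.

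**Figure D5:**
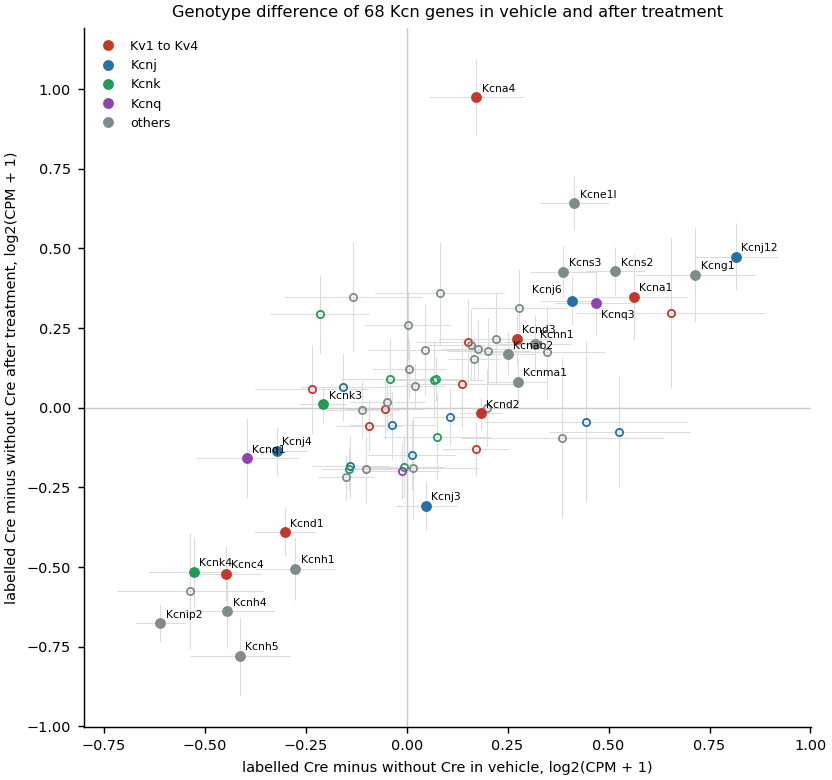
Log2 difference of CPM + 1, labelled Cre minus without Cre, of 68 of the 72 Kcn genes with vehicle (x axis) and after treatment (y axis), coloured by family, with SE as grey bars. Filled and named genes passed in at least 1 of the 2 comparisons. Kcnip2 lies at -0.61 and -0.68, Kcnq3 at 0.47 and 0.33, and Kcna4 at 0.17 and 0.97.

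No Kcn gene passed the test of whether the treatment effect differed between the genotypes. Among all 13048 tested genes 3 passed (0.023%). At an unadjusted p under 0.05 there were 8 of the 72 (11.1%) and 568 of all tested genes (4.35%). Kcna4 had the smallest p, with a treatment effect 0.80 ± 0.17 higher in libraries labelled Cre on the log2 scale (limma adjusted p = 0.335). Next were Kcnj3 with -0.35 ± 0.11 (adjusted p = 0.909) and Kcnk13 with 0.51 ± 0.17 (adjusted p = 0.988). On reads recovered from the CPM, edgeR called none of the 72 and DESeq2 called Kcna4 alone (adjusted p = 0.00492). Kcna4 values over all alternatives ranged from 0.56 to 0.89, with adjusted p from 0.00492 to 0.762.

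Genes outside the Kcn symbols whose proteins anchor or modify the channels, or move potassium, were read from lists. Of 17 auxiliary and anchoring genes of voltage-gated channels, 1 rose with treatment without Cre (5.88%, against 3.24% of all tested genes) and 2 fell in libraries labelled Cre (11.8%, against 10.3%). Dpp10, a partner of Kv4 channels, had 113, 121 and 126, then 156, 136 and 137 CPM without Cre (0.25 ± 0.07, adjusted p = 0.0384). That call was lost without vehicle library 1, 2 or 3 or treated library 1 of that genotype, or vehicle library 3 or treated library 3 labelled Cre (0.0514 to 0.165). Among libraries labelled Cre the ankyrin gene Ank3, which anchors channels at the axon initial segment, fell by 0.30 ± 0.07 (adjusted p = 0.00827), and Amigo1, a partner of Kv2 channels, fell by 0.26 ± 0.06 (adjusted p = 0.00913, or 0.0566 under median-ratio scaling).

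Between the genotypes, 3 of the 17 were higher and 5 lower in vehicle libraries labelled Cre (17.6% and 29.4%, against 9.18% and 10.1% of all tested genes). After treatment 1 was higher and 6 lower (5.88% and 35.3%, against 7.50% and 5.95%), and the calls of Ank3, Adam23, Cntnap2 and Lgi1 were lost with only the libraries compared in the fit (0.0535 to 0.138). Dpp10 had 81.3, 92.7 and 85.7, then 98.7, 93.6 and 93.2 CPM in libraries labelled Cre, all below the libraries without Cre (-0.47 ± 0.07 and -0.58 ± 0.07, adjusted p = 0.00102 and 0.000253). Dlg1, the scaffold SAP97, was lower, with log2 differences of -0.55 ± 0.07 and -0.47 ± 0.07 (adjusted p = 0.000243 and 0.000731). Lgi3 was lower, with differences of -0.48 ± 0.08 and -0.55 ± 0.08, and Lgi1, a secreted partner of Kv1 complexes, was higher by 0.29 ± 0.06 and 0.22 ± 0.06 (adjusted p = 0.00461 and 0.0226). Ank3 was lower after treatment (-0.35 ± 0.07, adjusted p = 0.00412). The second Lgi1 call was lost without treated library 1 or 3 without Cre or treated library 3 labelled Cre (0.0504 to 0.0941), and under median-ratio scaling (0.0802). The median of the 17 was -0.04 with vehicle and -0.12 after treatment. The second Kv4 partner, Dpp6, passed in no comparison (0.18 ± 0.08 and 0.13 ± 0.08).

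Abcc8, the sulfonylurea receptor SUR1 that joins Kir6.2, had 23.3, 28.4 and 24.7, then 23.0, 24.1 and 25.5 CPM without Cre, and 16.1, 17.4 and 22.3, then 16.9, 16.8 and 18.2 CPM in libraries labelled Cre. It was lower there, with log2 differences of -0.44 ± 0.11 and -0.46 ± 0.11 (adjusted p = 0.0149 and 0.0135). The first call was lost without vehicle library 2 without Cre or vehicle library 1 or 2 labelled Cre (0.0572 to 0.0646), and the second without treated library 3 without Cre (0.0508). Its paralogue Abcc9 passed nowhere. Of 4 genes of BK gamma subunits, 1 was above the limit: Lrrc55, with 27.9, 20.2 and 16.5 CPM after treatment without Cre and 41.1, 28.5 and 32.6 CPM in libraries labelled Cre (0.65 ± 0.17, adjusted p = 0.0211), a call lost with only the libraries compared in the fit (0.123) and without treated library 2 or 3 without Cre or treated library 1 or 3 labelled Cre (0.0529 to 0.0794).

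Among 13 genes of potassium pumps and cotransporters, 2 were higher and 6 lower in vehicle libraries labelled Cre (15.4% and 46.2%, against 9.18% and 10.1% of all tested genes). After treatment none was higher and 2 were lower (15.4%, against 5.95%). With treatment 1 rose without Cre (7.69%, against 3.24%) and none was called in libraries labelled Cre. The cotransporter gene Slc12a7 was among the 6 (-0.68 ± 0.14, adjusted p = 0.00552), with -0.44 ± 0.14 after treatment (adjusted p = 0.0564). The largest of the vehicle differences was Slc24a2, a potassium-dependent sodium-calcium exchanger, with 115, 127 and 114 against 254, 269 and 235 CPM (1.08 ± 0.19, adjusted p = 0.00223). After treatment its difference was 0.54 ± 0.19 (adjusted p = 0.0778).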

How the data were processed

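Polyadenylated RNA was sequenced as paired reads of 150 bp in 12 libraries. Per the submitters' processing notes, FastQC, Trimmomatic, STAR, DESeq2 and mm10 were used, without versions or roles; the counting tool, annotation and strandedness were not stated. The authors deposited CPM, which sum to 1000000 per library. Values were whole multiples of 1 read in 100% of cases (tolerance 0.01 of a read), also in vehicle library 1 labelled Cre, for which an automatic check could not decide. Reads recovered this way entered only alternatives, edgeR and DESeq2, and the self-test on simulated data. Columns named WT and KO were taken as without and labelled Cre from the titles. No column was left out.

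The 13048 genes averaging 1 CPM or more were tested with limma 3.58.1 in R 4.3.3 (trend, robust) on log2(CPM + 1), which understates changes of low genes. Means of 4 groups were fitted over all 12 libraries, with Benjamini-Hochberg adjustment per comparison (threshold 0.05, two-sided). Alternatives were other pseudocounts (0.1 and 5), filters, scalings, sample sets, a replicate block, leaving out each library, edgeR 4.0.16 and DESeq2 1.42.0. Replicates were no copies of each other (chi-square per degree of freedom of at least 27.4). Correlations of deviations over genes between same-numbered vehicle and treated libraries were 0.17, 0.14 and 0.48 labelled Cre. Without Cre they were 0.06, 0.41 and 0.07. Across genotypes they ranged from -0.38 to 0.36, so these values do not show a pairing. For named genes, the value with a block within genotype is printed where it ends a treatment call labelled Cre. Without Cre that block also ended the calls of Kcne1l, Kcnk1 and Dpp10 (limma adjusted p = 0.0676, 0.0504 and 0.0974). Named genes are those called, every Kcna to Kcnd gene, the 3 smallest p of the interaction and the called genes of each list, up to 4. The members and lists were chosen with earlier results of these data known. A few genes of these families and lists enter the counts and sums and are not reported here by name.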

Additional observations from a re-analysis of the deposited data

How the results depend on the processing

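The called values of Mef2c, the members and the listed partner genes, and the 3 smallest p of the interaction, kept their direction in all alternatives tried, and the differences of Mef2c between the genotypes stayed called in each. Of the called members, 1 of 7, 6 of 13, 11 of 23 and 10 of 16 stayed called in every alternative (treatment without Cre, treatment labelled Cre, genotype with vehicle, genotype after treatment). The counts moved by over 1.5 times as follows, and the cause was not tested. For treatment without Cre, 7 became 4 with no filter on low values and 12 with DESeq2 (10 higher and 2 lower). For genotype, 23 became 38 and 16 became 10 when only the libraries compared were fitted. For the interaction, 0 became 1 with DESeq2. Leaving out each library in turn gave counts of 1 to 11, 7 to 15, 13 to 27, 15 to 22 and 0. With a replicate block over all libraries the counts were 6, 13, 25, 15 and 0. With a block within genotype, added after the data were seen, they were 7 and 11 for treatment and 0 for the interaction. No label states a pairing, and no block was read as one. Same-numbered libraries of different genotypes had correlations of deviations from -0.38 to 0.36. With 3 libraries per group, members whose log2 SE reached 0.25 (Kcnj2 and Kcnab3) were measured least precisely.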
